A study of Rattus norvegicus with 6 samples.

Results

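The metallothionein genes and the genes of metal-responsive zinc transport were examined in cultured ventricular myocytes of newborn rats, that is, primary muscle cells of the heart. The rule names 10 genes by symbol, and 9 of them were found among the 21648 genes of the deposited table: the metallothionein genes Mt1, Mt1m, Mt2A and Mt3, the regulator gene Mtf1, the zinc exporter gene Slc30a1 and the importer genes Slc39a8, Slc39a10 and Slc39a14. Mt1a was not found under that symbol. The RefSeq table of the later rat assembly GRCr8 lists it as another name of Mt1. The set was chosen by a measured value, the higher CPM and log2 fold change of Mt2A with compound 915 against DMSO. Its members are therefore described here by their values, without a p-value for the comparison from which the set was drawn.

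Wild-type myocytes from pups at postnatal day 3 were kept for 72 h either in DMSO, which served as solvent control, or in compound 915 at 10 µM, with 3 libraries per group. In the submitters' text 915 is an ERR agonist, ERRs being the estrogen-related receptors, which are known to activate genes of mitochondrial respiration. Both groups had been pre-plated for 90 min to let fibroblasts attach and plated with serum and 100 µM bromodeoxyuridine. At day 2 the medium was changed to one with insulin, transferrin and selenium. The labels do not say whether the biological replicates came from separate isolations, so the spread between libraries may be partly technical.

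Metallothioneins are small, cysteine-rich proteins that bind zinc, copper and cadmium in clusters of thiolates, and they buffer free zinc and protect against metals and oxidants. When free zinc rises in a cell, the zinc finger protein MTF1, encoded by Mtf1, binds metal response elements in the promoters of metallothionein genes and of Slc30a1, whose product exports zinc across the plasma membrane. Importers of the ZIP family, encoded by SLC39 genes, bring zinc and in some cases iron, manganese or cadmium into the cytosol. Metallothionein genes are also known to respond to glucocorticoids, to cytokines of the IL-6 type and to oxidative stress.

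The metal response elements are shown first, since they are what links the metallothionein genes and Slc30a1 as a group. The sequences are the 250 bases upstream of the RefSeq transcription start in assembly GRCr8, 5′ to 3′ on the strand of the gene, and capitals mark every match to the core of the element. The core was searched as TGCACNC and TGCGCNC on both strands. They lie at chr19:10838709-10838958 on the minus strand for Mt2A, chr19:10832976-10833225 on the minus strand for Mt1, chr19:10856081-10856330 on the minus strand for Mt3 and chr13:106021769-106022018 on the plus strand for Slc30a1.
Mt2A: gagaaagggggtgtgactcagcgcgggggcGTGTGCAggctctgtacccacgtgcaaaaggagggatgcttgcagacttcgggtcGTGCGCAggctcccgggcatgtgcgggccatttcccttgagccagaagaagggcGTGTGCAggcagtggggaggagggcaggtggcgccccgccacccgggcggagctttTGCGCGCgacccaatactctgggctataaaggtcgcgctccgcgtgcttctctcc
Mt1: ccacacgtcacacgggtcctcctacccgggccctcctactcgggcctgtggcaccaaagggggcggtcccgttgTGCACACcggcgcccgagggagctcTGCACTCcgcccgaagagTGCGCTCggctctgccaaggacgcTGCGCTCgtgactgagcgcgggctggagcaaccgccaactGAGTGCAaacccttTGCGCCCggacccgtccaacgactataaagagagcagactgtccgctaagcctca
Mt3: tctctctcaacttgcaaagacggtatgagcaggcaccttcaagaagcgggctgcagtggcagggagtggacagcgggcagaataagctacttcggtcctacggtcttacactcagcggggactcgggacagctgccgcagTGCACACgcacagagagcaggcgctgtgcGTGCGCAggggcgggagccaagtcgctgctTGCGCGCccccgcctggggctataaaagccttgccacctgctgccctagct
Slc30a1: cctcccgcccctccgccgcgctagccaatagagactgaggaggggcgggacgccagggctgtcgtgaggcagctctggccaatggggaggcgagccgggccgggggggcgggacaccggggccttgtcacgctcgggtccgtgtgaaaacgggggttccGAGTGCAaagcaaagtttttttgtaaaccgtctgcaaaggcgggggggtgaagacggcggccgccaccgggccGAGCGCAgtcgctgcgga

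The Mt1 window held 6 matches and the Mt2A window 4, while the windows of Mt3 and Slc30a1 held 3 and 2. Of the 33469 windows of this length in the RefSeq table, 20.6% held at least 1 match, 4.90% at least 2, 1.17% at least 3, 0.266% at least 4 and 0.0269%, or 9 windows, at least 6. The match nearest to the start began 55 bases upstream of it in both Mt1 and Mt2A, and 51 bases upstream in Mt3. The Mtf1 window held 2 matches, and those of Slc39a10 and Slc39a8 held 0. Bases G and C made up 66.4% of the Mt1 window, 66.0% of Mt2A, 62.8% of Mt3 and 69.2% of Slc30a1. In Slc39a10 and Slc39a8 they made up 45.6% and 59.2%. Both forms of the core are rich in G and C, and the shares over all windows were not matched for this composition. No RefSeq window was matched to Mt1m or Slc39a14. Another 3 motifs were searched in the same windows, and none of their matches shared a base with a metal response element match. The antioxidant response element core TGACNNNGC was found once in Mt2A, Mt1, Slc30a1 and Slc39a8 and 2 times in Mtf1, and 10.1% of all windows held it. The ERR response element, searched as TNAAGGTCA and held by 1.04% of all windows, had 0 matches in the windows of the 7 members, and the glucocorticoid response element, searched as AGAACA and its reverse complement TGTTCT with 3 bases between them and held by 0.0120%, also had 0. A match describes letters in a window and not a bound site. The ERR and glucocorticoid elements as searched are so rare that 0 matches in 7 windows say little about either. Looser forms of them and bases farther upstream were not searched.

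**Figure D1:**
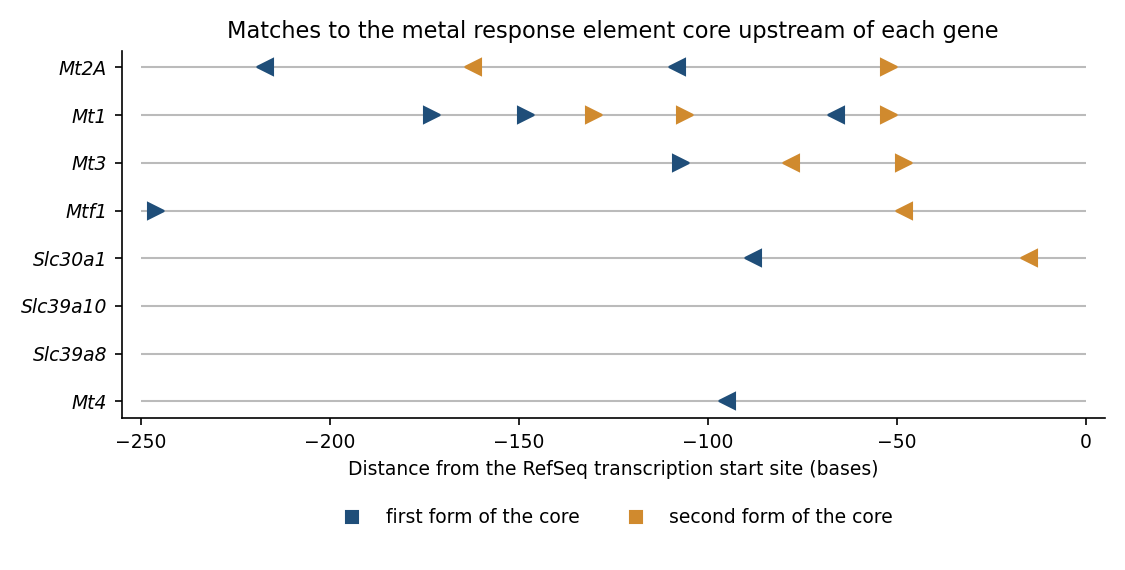
Matches to the metal response element core in the 250 bases upstream of the RefSeq start site (x axis, bases from the start) of 7 members and of Mt4, with arrowheads pointing along the strand of the match and colours for the 2 forms of the core. Mt1 carries 6 matches and Mt2A 4, and Slc39a10 and Slc39a8 carry 0.

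Levels are deposited CPM values, that is, counts divided by 1 total per library and brought to a common scale. Counts in the table summed to between 36799845 and 40010826 in the DMSO libraries and between 30639244 and 38078137 in the 915 libraries. A gene at 0 counts could still hold up to 3, or 0.0698 to 0.0917 CPM, a limit that covers counting error only. Log2 fold changes come from edgeR with TMM scaling, so they differ somewhat from ratios of the CPM values. They carry their standard error (SE), n = 3 libraries per group. All 9 members passed the edgeR filter on low counts. Transcript lengths were not used, so levels are compared between groups for 1 gene and not between genes.

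Markers of the labelled cell type, the cardiomyocyte, were abundant, and marker lists of several cell types differed between the groups in the same libraries as the members. A gene is said to have risen or fallen where its edgeR adjusted p was under 0.05, and 24.3% of all 14253 genes tested rose and 25.5% fell. The p-values measure only the spread between these libraries. Of the cardiomyocyte markers 9 of 9 rose, and their summed level was 18297 to 19105 CPM with DMSO and 26425 to 26650 CPM with 915. Of 11 fibroblast markers 8 fell and 2 rose (25601 to 26685 and 13578 to 14377 CPM). Most of this sum was collagen, with means from DMSO to 915 of 11988 to 6289 CPM (Col1a1), 7067 to 2826 CPM (Col3a1) and 4427 to 2429 CPM (Col1a2). Pdgfra and Dcn were those that rose, Postn did not pass (1606 to 1597 CPM), and the remaining fibroblast markers fell. Of 5 smooth muscle and pericyte markers 4 fell and 0 rose (1661 to 1797 and 647 to 698 CPM). Of 9 endothelial markers 5 fell and 1 rose (72.1 to 74.9 and 57.0 to 57.4 CPM), and of 10 macrophage and leukocyte markers 4 fell and 1 rose (225 to 244 and 122 to 148 CPM). Without DMSO library 3 or 915 library 3, 3 endothelial markers fell. The macrophage marker that rose, Cd74, lost its call without DMSO library 1, DMSO library 3, 915 library 1 or 915 library 3. In none of these lists was a matched marker at 0 in all libraries. In such bulk libraries fewer cells of a type and less RNA per cell cannot be told apart, and the part of these shifts in the levels of the metallothionein and zinc transport genes was not tested.

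Mt2A, which encodes a main metallothionein of most tissues, is the member that gave the set its place. In libraries 1 to 3 its level was 176, 207 and 182 CPM with DMSO, and 673, 649 and 651 CPM with 915. The groups were far apart: the lowest 915 library was 3.13 times the highest DMSO library. The means were 188 ± 16.6 CPM with DMSO and 658 ± 13.2 CPM with 915 (SD, n = 3 each), a ratio of 3.49. The edgeR log2 fold change was 1.85 ± 0.0617 (SE) or 3.61-fold. Among the DMSO libraries, library 2 was the highest.

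Mt1, which encodes the other widely expressed metallothionein, had the same pattern at a lower count. Its level was 3.21, 3.37 and 3.29 CPM with DMSO (libraries 1 to 3) and 12.7, 14.3 and 13.7 CPM with 915, values that rest on 130 to 140 and 468 to 558 counts. The groups did not overlap, and the log2 fold change was 2.09 ± 0.109, or 4.26-fold, the highest of the 9 members. The DMSO counts were 138, 140 and 130 in libraries 1 to 3, too close to order these libraries.

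Mt1m reached 4.12, 5.03 and 4.25 CPM with DMSO (libraries 1 to 3) against 17.5, 14.1 and 14.9 CPM with 915. The groups did not overlap, and the log2 fold change was 1.84 ± 0.120 (3.59-fold), beside 1.85 for Mt2A. The deposited table calls Mt1m protein coding, whereas the RefSeq table calls it a pseudogene and places it outside the metallothionein cluster. How reads that map to several near-identical copies were counted is not given in the sources used here. Reads of Mt1m, Mt1 and Mt2A may be shared or lost, and the value of Mt1m is uncertain as that of a separate gene. Mt1, with few counts beside Mt2A, carries the same limit, so the 3 differences may not be separate measurements.

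Mt3, known best as a brain metallothionein, did not follow the other metallothionein genes. Its counts were 32, 34 and 35 in the DMSO libraries and 12, 26 and 16 in the 915 libraries, or 0.745, 0.819 and 0.886 CPM against 0.314, 0.795 and 0.394 CPM. The groups overlapped through 915 library 2, and the log2 fold change was −0.68 ± 0.374. Leaving out 1 of the 915 libraries moved it from −0.43 (without library 1) to −1.14 (without library 2). Mt4, the remaining gene of the cluster and no member, known from stratified epithelium, had 0 counts in all 6 libraries.

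Together the 4 metallothionein genes took, of the total counts that the authors used per library, 0.0197% ± 0.00172 in the DMSO group and 0.0687% ± 0.00141 in the 915 group (SD, n = 3 each). In single libraries the share ran from 0.0184% to 0.0216% with DMSO and from 0.0678% to 0.0704% with 915. Mt2A supplied 95.6% ± 0.0872 of these metallothionein counts with DMSO and 95.7% ± 0.0361 with 915. This share of Mt2A overlapped between the groups. In single libraries it ran from 95.57% to 95.74% with DMSO and from 95.66% to 95.73% with 915. It is a share of counts, not corrected for transcript length, and it depends on how reads shared by near-identical copies were counted.

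**Figure D2:**
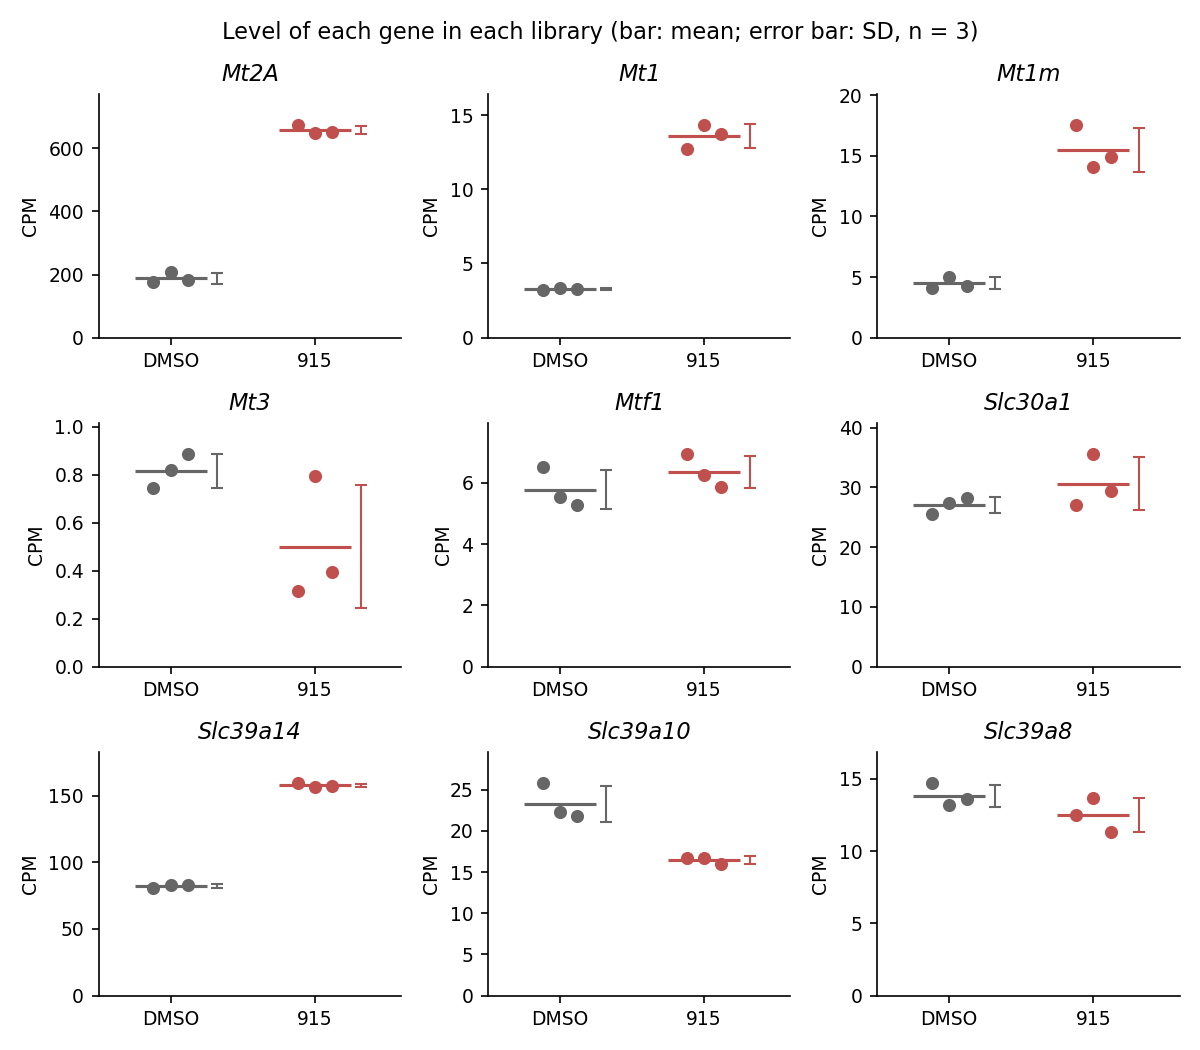
CPM (y axis, from 0, a separate scale for each gene) of the 9 members in the 3 DMSO and 3 915 libraries, with each point a library, the bar the mean and the error bar the SD. The groups stand apart for Mt2A, Mt1, Mt1m and Slc39a14, which were higher with 915, and for Slc39a10, which was lower.

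Mtf1, the gene of the zinc-sensing transcription factor, overlapped between groups. Its levels in libraries 1 to 3 were 6.52, 5.54 and 5.29 CPM with DMSO and 6.93, 6.27 and 5.88 CPM with 915, with a log2 fold change of 0.19 ± 0.127. A second row of the table described as Mtf1-like, LOC100909856, held 1 to 16 counts per library, so few reads were counted there.

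Slc30a1, the exporter gene that MTF1 is known to activate, differed little beside the metallothioneins. In libraries 1 to 3 it stood at 25.5, 27.3 and 28.1 CPM with DMSO and at 27.1, 35.5 and 29.3 CPM with 915. The groups overlapped, and 915 library 2 was the highest of all 6. The log2 fold change was 0.23 ± 0.0903 (1.17-fold), and 0.11 without 915 library 2.

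The 3 importer genes of the set went different ways. Slc39a14, which encodes the importer ZIP14 of zinc, iron and manganese, stood at 80.6, 83.1 and 83.2 CPM with DMSO and at 159, 157 and 157 CPM with 915. The groups were narrow and did not overlap, and the log2 fold change was 0.99 ± 0.0470 (1.98-fold). Slc39a14 is known to be raised in liver by IL-6 in the acute phase response. Slc39a10, which encodes the plasma membrane importer ZIP10 and is known to be repressed through MTF1 when zinc is high, was at 25.8, 22.3 and 21.8 CPM in the DMSO libraries and at 16.8, 16.7 and 16.0 CPM in the 915 libraries. It was lower in every 915 library than in any DMSO library, with a log2 fold change of −0.45 ± 0.0793 (1.37-fold lower). Slc39a8, which encodes ZIP8, an importer of zinc, manganese and cadmium, was at 14.7, 13.2 and 13.6 CPM with DMSO and at 12.5, 13.6 and 11.3 CPM with 915. Its groups overlapped, and the log2 fold change was −0.10 ± 0.0923.

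Of the 9 members, 5 were past an edgeR adjusted p of 0.05 as higher (Mt2A, Mt1, Mt1m, Slc30a1 and Slc39a14) and 1 as lower (Slc39a10), where 24.3% and 25.5% of all 14253 genes tested were past it in those directions and 49.8% in either. Groups that did not overlap in CPM were found for 4 members that were higher and 1 that was lower, where 23.9% and 32.8% of all genes tested did not overlap in those directions and 56.7% in either. The median log2 fold change was 0.23 over the members and −0.01 over all genes tested. These counts describe a set drawn from this same comparison, and nothing is read from them. For a member, being past the threshold, here and below, describes the fit across all genes and is no test of the member. By log2 fold change Mt1 ranked 49, Mt2A 71, Mt1m 74 and Slc39a14 284 from the highest of the 14253 genes. Slc30a1 was past the threshold in 5 of 11 alternative fits, and Mt3, which was not past it, was so in 1 of 11, without 915 library 2.

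The zinc transporters outside the set had log2 fold changes nearer to 0 than those of Mt2A, Mt1, Mt1m and Slc39a14. For the counts below, 24.3% of all genes tested rose and 25.5% fell. Of 9 matched other exporter genes, 7 were tested, of which 4 rose with 915 and 0 fell, with a median log2 fold change of 0.17. Leaving out any 1 of the 6 libraries left 3. The fourth, Slc30a3, for an exporter of synaptic vesicles, passed in 2 of 11 alternative fits (0.17 ± 0.0642, edgeR adjusted p = 0.0421). Slc30a5, whose product loads zinc into the secretory pathway, rose from 54.1 ± 0.427 to 69.0 ± 2.18 CPM (0.40 ± 0.0522 as log2 fold change, edgeR adjusted p = 1.98e-05). Slc30a9, for a transporter of mitochondrial zinc, went from 80.6 ± 1.12 up to 99.6 ± 4.99 CPM (0.35 ± 0.0520, edgeR adjusted p = 6.39e-05). Slc30a4 rose from 48.9 ± 4.86 to 58.6 ± 8.13 CPM (0.31 ± 0.0896, edgeR adjusted p = 0.0107), with overlapping groups and an edgeR adjusted p of 0.0561 without 915 library 2. Of 10 matched other importer genes, 9 were tested, of which 4 rose and 0 fell, with a median of 0.16, whereas with library totals alone as the scale 2 rose and 1 fell. Slc39a7, which encodes the importer that releases zinc from the endoplasmic reticulum, rose from 141 ± 2.63 to 156 ± 5.27 CPM (0.20 ± 0.0482, edgeR adjusted p = 3.77e-03). Slc39a6 rose from 70.0 ± 1.57 to 76.6 ± 0.924 CPM (0.18 ± 0.0496, edgeR adjusted p = 8.47e-03, and 0.0594 with library totals alone). Slc39a2 was scarce, at 2.18 ± 0.353 CPM with DMSO and a higher 3.13 ± 0.478 CPM with 915 (0.56 ± 0.193, edgeR adjusted p = 0.0256). Its call was lost without DMSO library 3 (adjusted p = 0.104) or 915 library 1 (0.110), and each of these left 2 importer genes called higher. The fourth, Slc39a9, passed in 1 of 11 alternative fits (0.16 ± 0.0611, edgeR adjusted p = 0.0443). The other zinc transporters tested lay between log2 fold changes of −0.31 (Tmem163) and 0.56 (Slc39a2).

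**Figure D3:**
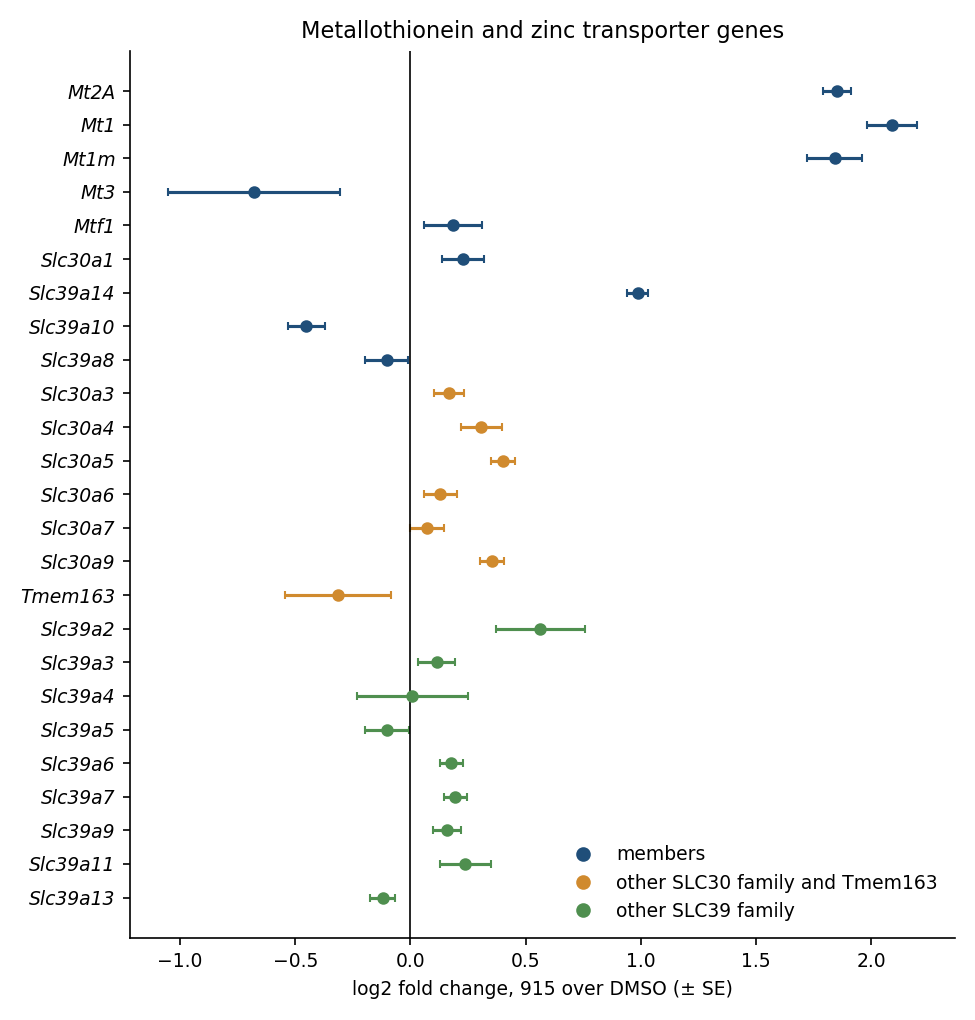
Log2 fold change of 915 over DMSO (x axis, point) with its SE (bar) for the 9 members, the other SLC30 genes with Tmem163 and the other SLC39 genes that were tested. Mt1, Mt2A and Mt1m lie between 1.84 and 2.09, Slc39a14 at 0.99, and the zinc transporters outside the set between −0.31 and 0.56.

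Other genes that have been linked to MTF1 were split. Of 9 matched, 7 were tested, of which 3 rose and 4 fell (median −0.44), beside 24.3% and 25.5% of all genes tested. Hamp, which encodes the iron hormone hepcidin, rose from 24.0 ± 2.17 to 58.3 ± 8.69 CPM (1.33 ± 0.0998 as log2 fold change, edgeR adjusted p = 7.55e-08). Ndrg1, a gene known to respond to hypoxia and metals, fell from 71.2 ± 3.44 to 35.2 ± 1.00 CPM (−0.97 ± 0.0597, edgeR adjusted p = 9.71e-09). Csrp1, which encodes a zinc-binding LIM protein of smooth muscle and other cells, fell from 400 ± 8.58 to 278 ± 8.02 CPM (−0.48 ± 0.0446, edgeR adjusted p = 7.78e-07). Gclc, for the first enzyme of glutathione synthesis and also on the NRF2 list, and the iron exporter gene Slc40a1 also rose, at 0.52 ± 0.0492 and 0.57 ± 0.0884, while Pgf and the selenoprotein gene Selenow also fell, at −0.44 ± 0.0936 and −0.62 ± 0.0747. The higher metallothionein genes stood beside genes linked to the same factor that went both ways, and a part of MTF1 was not tested.

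Copper is the other physiological metal of metallothioneins. Of 11 copper handling genes tested, 4 rose and 2 fell (median 0.04), beside 24.3% and 25.5% of all genes tested. The second that fell, the copper importer gene Slc31a1 (−0.19 ± 0.0618, edgeR adjusted p = 0.0199), lost its call without DMSO library 3, 915 library 1 or 915 library 2, which left 1. Commd1, among the 4 that rose, had overlapping groups (0.25 ± 0.0764, edgeR adjusted p = 0.0143). Its edgeR adjusted p was 0.0552 without DMSO library 1 and 0.0846 without 915 library 3, and each of these fits left 3 copper genes higher. Cox17, the copper chaperone of cytochrome c oxidase, rose from 75.4 ± 3.60 to 146 ± 6.53 CPM (1.00 ± 0.0566 as log2 fold change, edgeR adjusted p = 4.19e-09), and Sod1, the copper and zinc superoxide dismutase, from 443 ± 32.1 to 602 ± 26.2 CPM (0.49 ± 0.0577, edgeR adjusted p = 7.32e-06). Cp, which encodes the copper-carrying ferroxidase ceruloplasmin, fell from 35.6 ± 4.26 to 26.7 ± 1.84 CPM (−0.37 ± 0.0848, edgeR adjusted p = 2.52e-03).

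Gene lists for the other known inducers of metallothioneins were counted in the same fit, in which 24.3% of all genes tested rose and 25.5% fell. These lists hold components of the pathways, such as ligands, receptors and transcription factors, beside genes that respond. All 14 tested genes of the IL-6 and STAT3 response rose, with a median log2 fold change of 0.76. Lcn2, a siderophore-binding lipocalin, rose 12.5-fold (edgeR adjusted p = 9.44e-13), Lif, a cytokine of the IL-6 type, went from 3.88 ± 0.369 to 9.71 ± 0.464 CPM (1.37 ± 0.118, edgeR adjusted p = 3.17e-07), and Stat3, the transcription factor of the pathway, from 289 ± 7.32 to 428 ± 4.52 CPM (0.61 ± 0.0445, edgeR adjusted p = 5.16e-08). Of 11 tested genes of the NRF2 antioxidant response, 10 rose and 1 fell (median 0.38). Hmox1, which encodes heme oxygenase, rose from 120 ± 7.03 to 448 ± 33.5 CPM (1.95 ± 0.0640, edgeR adjusted p = 2.12e-11), Osgin1 from 11.9 ± 0.478 to 26.5 ± 1.98 CPM (1.21 ± 0.0817, edgeR adjusted p = 2.53e-08) and Srxn1, which encodes sulfiredoxin, from 10.9 ± 0.962 to 25.1 ± 1.89 CPM (1.26 ± 0.0902, edgeR adjusted p = 4.74e-08). The 1 that fell was Slc7a11, which encodes the cystine importer, at −0.51 ± 0.115 (edgeR adjusted p = 2.12e-03).

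Of 8 tested glucocorticoid response genes, 3 rose and 1 fell (median 0.04), where 24.3% of all genes tested rose and 25.5% fell. Without DMSO library 1, DMSO library 3 or 915 library 2, 0 fell. The 3 were Hsd11b1, whose product regenerates active glucocorticoid, at 1.09 ± 0.0689 on the log2 scale (edgeR adjusted p = 1.28e-08), Zbtb16 at 0.87 ± 0.148 (edgeR adjusted p = 2.31e-04) and Sgk1, a kinase of salt and stress responses, at 0.34 ± 0.0801 (edgeR adjusted p = 2.85e-03). The 1 that fell was Fkbp5, a co-chaperone of the receptor and known as a glucocorticoid target (−0.22 ± 0.0743, edgeR adjusted p = 0.0218). The receptor gene Nr3c1 did not pass (−0.03 ± 0.0700, edgeR adjusted p = 0.759). Of 8 tested genes on the stress chaperone list, some of which cadmium and heat are known to induce, 3 rose and 0 fell (median 0.14). Bag3, a co-chaperone of muscle, rose from 188 ± 3.16 to 334 ± 13.6 CPM (0.88 ± 0.0480, edgeR adjusted p = 3.00e-09), Hspa8 by 0.29 ± 0.0418 (edgeR adjusted p = 5.46e-05) and Hsph1 by 0.18 ± 0.0524 (edgeR adjusted p = 0.0117, and 0.0695 without DMSO library 1). The inducible Hspa1b was at 2.24 ± 0.256 CPM with DMSO and 2.43 ± 0.304 CPM with 915 and did not pass (edgeR adjusted p = 0.518).

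**Figure D4:**
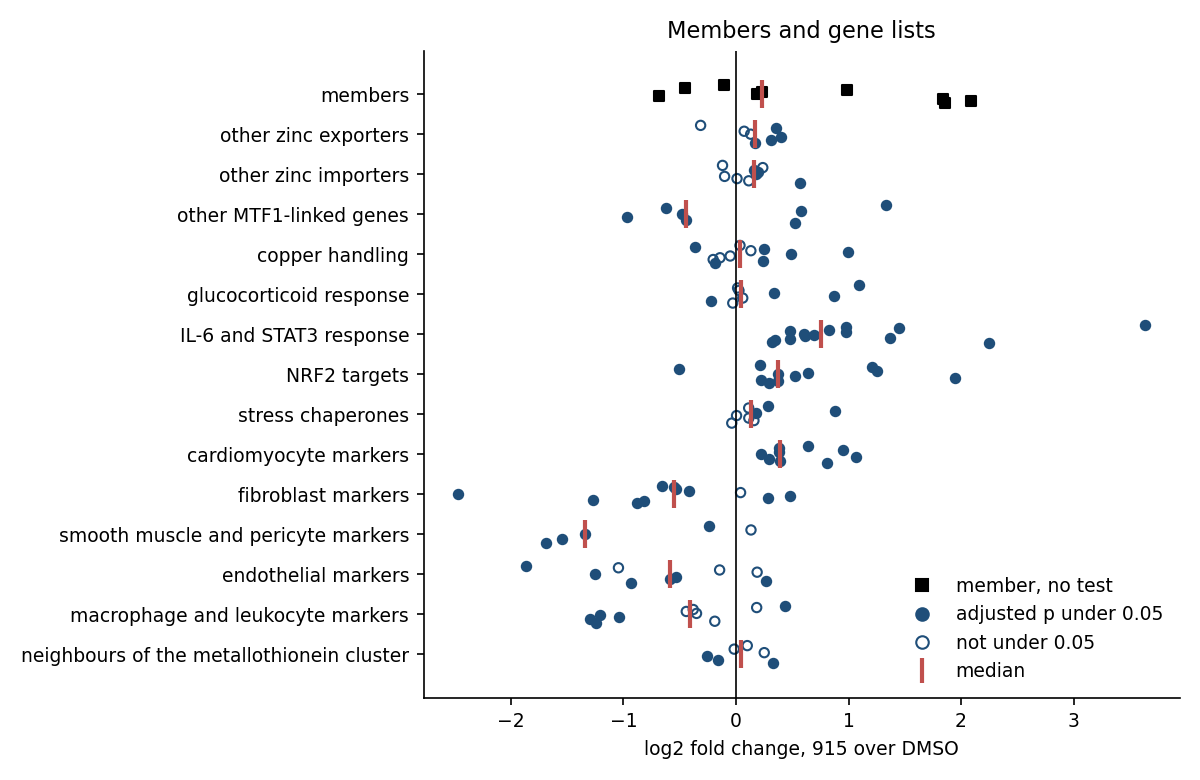
Log2 fold change of 915 over DMSO (x axis) for the members (squares, no test) and for each tested gene of the lists (filled circles past an edgeR adjusted p of 0.05, open circles not), with the median as a red bar. All 14 genes of the IL-6 and STAT3 list lie to the right of 0, and the genes linked to MTF1 lie on both sides.

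In the RefSeq order of genes, Mt1, Mt2A, Mt3 and Mt4 stand side by side between Nup93 and Bbs2. Of the 10 nearest protein-coding genes, 5 on each side, 6 were matched and tested, of which 1 rose and 2 fell, with a median log2 fold change of 0.04. Among all genes tested, 24.3% rose and 25.5% fell. Herpud1, a gene of the endoplasmic reticulum stress response, rose (0.33 ± 0.0459, edgeR adjusted p = 3.60e-05). Nup93, for a nuclear pore protein, fell (−0.16 ± 0.0532, edgeR adjusted p = 0.0200), with an adjusted p of 0.0702 without DMSO library 1, 0.0505 without DMSO library 2 and 0.0640 without 915 library 1. Bbs2, for a protein of the ciliary BBSome, fell (−0.26 ± 0.0750, edgeR adjusted p = 9.75e-03). Ogfod1, Nudt21 and Gnao1 did not pass, at log2 fold changes of 0.25 ± 0.108, −0.02 ± 0.0627 and 0.10 ± 0.0609. The neighbours thus had log2 fold changes between −0.26 and 0.33, beside 1.85 for Mt2A and 2.09 for Mt1.

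The genes whose profile over the 6 libraries was most like that of Mt2A were sought among 10137 genes with a mean of at least 5 CPM. The measure was the root mean square difference of log2(CPM + 0.5) after each profile was centred on its DMSO mean, so it rests mostly on the difference between the groups, and it is a description. The closest was Testin, at a difference of 0.0504, followed by C3, which encodes the complement protein (0.0674), the tubulin gene Tuba4a (0.0775), Hmox1 (0.0916) and Perm1, for a regulator in muscle that works with ERRs (0.0968). C3 was at 12.5, 14.8 and 11.7 CPM with DMSO and at 48.9, 45.0 and 49.5 CPM with 915. Testin was at 4.84, 5.47 and 4.73 CPM with DMSO and at 18.5, 19.7 and 18.6 CPM with 915. In Testin, C3, Hmox1 and Perm1, as in Mt2A, DMSO library 2 was the highest of its group. In Tuba4a it was DMSO library 1, at 108.5 CPM against 107.9 and 101.8 CPM. The genes were chosen for likeness over these same libraries, so a shared order of libraries is no separate result.

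**Figure D5:**
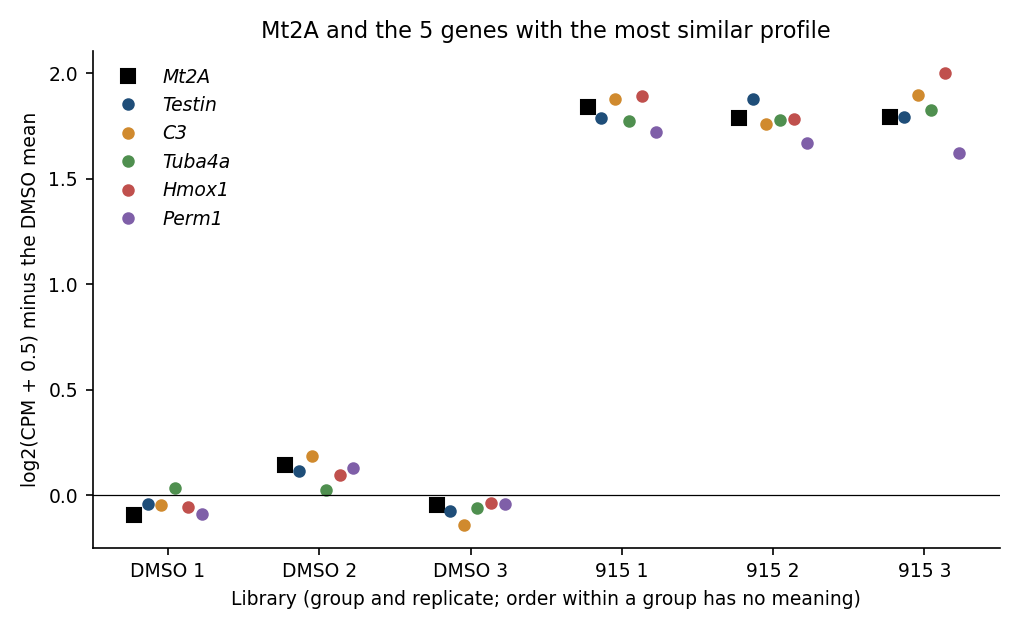
Log2(CPM + 0.5) minus the DMSO mean (y axis) in each of the 6 libraries (x axis) for Mt2A (squares) and the 5 genes with the most similar profile (circles). In the 915 libraries all of them lie between 1.62 and 2.00, and in the DMSO libraries between −0.14 and 0.19.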

How the data were processed

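RNA was sequenced from 6 cultures of neonatal rat ventricular myocytes. The submitters' processing notes name STAR 2.5.1a, Subread featureCounts 1.4.6-p5 and the build Rnor_6.0. For strand and multi-mapping reads the setting is not given in the sources used here. The authors deposited raw counts in 22641 rows, 993 of which repeated an identifier with the same counts and were dropped. The CPM deposited by the authors equal these counts divided by 1 total per library. The table held 93.1% to 93.7% of those totals.

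Counts were filtered with filterByExpr, scaled by TMM and fitted on group alone with edgeR 4.0.16 (R 4.3.3) quasi-likelihood tests, two-sided, with Benjamini-Hochberg adjustment over 14253 genes and a threshold of 0.05. The SE is the log2 fold change divided by the square root of F. DESeq2 1.42.0 was an alternative. Libraries of 1 group were no copies of each other: their chi-square divided by its degrees of freedom was 5.45 to 11.6.

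Members and lists were chosen with earlier results of these data known. Of 145 entries in 13 lists, 126 matched. An identifier repeated under 1 symbol was represented by its more abundant row. Named genes were all members, up to 3 called genes with the smallest p per pathway list, the cluster's neighbours and the 5 profiles most like Mt2A. Nr3c1, Hspa1b, Tmem163, Slc30a3, Slc39a9, Fkbp5, Slc7a11, Gclc, Slc40a1, Pgf, Selenow, Slc31a1, Commd1, Mt4, LOC100909856 and Cd74 were named after their values were seen. So were the fibroblast markers Col1a1, Col3a1, Col1a2, Pdgfra, Dcn and Postn. Promoter windows are RefSeq's for GRCr8, of which the 50 bases after the start were not used.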

Additional observations from a re-analysis of the deposited data

How the results depend on the processing

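Across 5 alternative fits and 6 fits that each left out 1 library, no member that was past the threshold changed sign. Leaving out each library in turn gave log2 fold changes of 1.80 to 1.94 for Mt2A, 2.06 to 2.14 for Mt1, 1.75 to 1.94 for Mt1m, −1.14 to −0.43 for Mt3, 0.12 to 0.27 for Mtf1, 0.11 to 0.31 for Slc30a1, 0.96 to 1.00 for Slc39a14, −0.50 to −0.38 for Slc39a10 and −0.17 to −0.04 for Slc39a8. These fits called 2939 to 3496 genes higher and 3105 to 3551 lower, against 3460 and 3636 with all libraries. With 2 libraries in a group the fit shares 1 estimate of the spread. With library totals alone as the scale, Slc39a14 was at 0.93, the other zinc importers had 2 genes higher and 1 lower, and the median of all genes shifted by −0.06. Leaving out 1 library gave 3 exporter genes higher in each fit, 2 to 4 importer genes higher and 3 to 4 copper genes higher. It gave 1 to 3 copper genes lower, 0 to 1 glucocorticoid genes lower and 1 to 2 neighbours lower. DESeq2 called 0 glucocorticoid genes lower. With the table sum as the total, the metallothionein share with 915 was 0.0734%, and without Mt1m, an alternative chosen after seeing the data, it was 0.0672%.

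The labels number the replicates 1 to 3 in both groups and do not tie a number to 1 isolation. Deviations of same-numbered libraries correlated at −0.0900, −0.273 and −0.161 across 12423 genes, and no library correlated best with its own number. With the replicate number as a block, 6193 genes were called in place of 7096, Slc30a1 was not past the threshold at a log2 fold change of 0.22, and 1 copper gene, 0 glucocorticoid genes and 1 neighbour were lower. Depth limits Mt3, which rests on 12 to 35 counts per library. The cause of these differences was not tested.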
